A study of Mus musculus with 20 samples.

Results

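The globin genes encode the protein chains of hemoglobin, the oxygen carrier of the red cell. They were taken from the count tables by symbol: the adult alpha genes Hba-a1 and Hba-a2, the adult beta genes Hbb-bs and Hbb-bt, the embryonic genes Hba-x, Hbb-y and Hbb-bh1, and the theta genes Hbq1a and Hbq1b. These are 9 of the 55486 genes in each table, and Ahsp, the chaperone of free alpha chains, is not analysed here. The tables hold total RNA sequencing of bone marrow and kidney from C57BL/6 mice of both sexes. The groups held 5 mice each and were compared within a tissue: bone marrow oxaliplatin against bone marrow control, and kidney oxaliplatin against kidney control. Oxaliplatin, a platinum drug that forms DNA crosslinks, was injected intraperitoneally at 10 mg/kg weekly for 8 weeks. Controls, called vehicle here, received 5% dextrose. The age given, 10 weeks, is that before dosing, so the sequenced tissue came from older animals. By the study's methods, marrow was harvested some days after the final injection. The question was how the drug acts on blood formation, and the sex of each library is not given in the labels.

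Red cell precursors in adult bone marrow switch on alpha and beta globin genes together as they mature, and the chains must be made in nearly equal amounts. Each gene set lies in a cluster and is driven from a distant control region through factors such as GATA1, KLF1 and TAL1, while the embryonic genes are used before birth and then silenced. Young red cells leave the marrow without a nucleus but still carry globin mRNA, so blood held in an organ also contributes globin reads. In whole tissue, fewer cells of a type and less RNA per cell cannot be told apart.

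The clusters were placed on GRCm38 with the GENCODE M21 annotation. On the forward strand of chromosome 11 lie Hba-x (chr11:32276400-32278116), Hba-a1 (chr11:32283511-32284465), Hbq1b (chr11:32286965-32287784), Hba-a2 (chr11:32296489-32297298) and Hbq1a (chr11:32300069-32300873). On the reverse strand of chromosome 7 lie Hbb-bt (chr7:103812524-103813996), Hbb-bs (chr7:103826534-103828096), Hbb-bh1 (chr7:103841637-103843164) and Hbb-y (chr7:103851749-103853216).

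The adult genes come as near-identical copies, and the tables count only reads that match a single place, so reads from shared stretches are missing from both copies. The 41-base stretches below hold the single base at which the coding sequences of each pair differ, in capitals. Positions are counted from the A of the start codon. The difference between the beta copies is C417T, with Hbb-bs first, among 441 coding bases. That between the alpha copies is C381T, with Hba-a1 first, among 426 coding bases. Both are at the third base of a codon.
Hbb-bs: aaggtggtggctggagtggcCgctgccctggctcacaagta
Hbb-bt: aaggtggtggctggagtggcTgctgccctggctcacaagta
Hba-a1: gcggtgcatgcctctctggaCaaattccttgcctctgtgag
Hba-a2: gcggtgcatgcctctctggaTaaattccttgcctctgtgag
Of all 100-base windows of the transcript, 56.5% of Hba-a1 and 74.5% of Hba-a2 windows were found in the other alpha copy, and 62.6% of Hbb-bs and 54.8% of Hbb-bt windows in the other beta copy. The read length is not given in the sources used here, and the shared part was larger at 50 bases and smaller at 150. The theta genes differed at 27 of 435 aligned coding bases and shared 24.4% (Hbq1a) and 26.6% (Hbq1b) of windows, whereas no window of Hba-x, Hbb-y or Hbb-bh1 was shared. Levels of the adult genes are therefore levels of their unambiguous reads.

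The promoters differ more than the coding sequences do in the beta pair. Over 250 bases before the RefSeq transcript start, Hba-a1 and Hba-a2 were 97.6% identical and Hbb-bs and Hbb-bt 68.4%. The last 120 bases before that start are shown for the 4 adult genes because these genes fell together in marrow while the beta copies differed in how far. They come from RefSeq on GRCm38.p6, and capitals mark the CCAAT box, the CACCC-type motif CCACCC and its beta globin form CACACCC, on either strand.
Hba-a1 (chr11:32283552-32283671, forward): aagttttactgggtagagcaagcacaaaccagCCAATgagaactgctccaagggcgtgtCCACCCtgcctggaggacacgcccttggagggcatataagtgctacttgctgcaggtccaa
Hba-a2 (chr11:32296372-32296491, forward): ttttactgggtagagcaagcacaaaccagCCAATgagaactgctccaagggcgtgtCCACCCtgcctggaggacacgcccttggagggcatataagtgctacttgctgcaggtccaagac
Hbb-bs (chr7:103827929-103828048, reverse): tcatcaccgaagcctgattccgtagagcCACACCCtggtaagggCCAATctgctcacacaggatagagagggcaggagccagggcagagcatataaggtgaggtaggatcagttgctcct
Hbb-bt (chr7:103813924-103814043, reverse): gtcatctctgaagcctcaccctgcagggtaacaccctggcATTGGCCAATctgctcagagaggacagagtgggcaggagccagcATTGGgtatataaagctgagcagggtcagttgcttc
Searched on both strands over 250 bases, CCAAT was found in all 4, once in Hba-a1, Hba-a2 and Hbb-bs and at 3 places in Hbb-bt, against 33.8% of 32851 mouse promoters. CCACCC stood at bases -61 to -56 of Hba-a1 and -64 to -59 of Hba-a2, and at -141 to -136 of Hbb-bt, outside the stretch shown, against 28.1% of promoters. CACACCC was found only in Hbb-bs among the 8 globin promoters at hand, at bases -92 to -86, against 6.93% of promoters. GATAA was found in each of the 4 upstream of the stretches shown, against 22.6%. A match of letters is a description and not a bound site. A link between these sequences and the change in reads was not tested.

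Total counts were 30660153 to 41140527 per marrow library and 24393007 to 30925430 per kidney library. Levels are given in CPM, counts brought to a common library size, with the library scaled by the trimmed mean of M values, and a count of 3 is worth 0.0668 to 0.0975 CPM in marrow and 0.0900 to 0.130 CPM in kidney. A gene was called at an adjusted p under 0.05 with a fold change beyond 1.5, by edgeR's quasi-likelihood test over all genes tested. Marrow libraries held mitochondrial transcripts at 0.589 to 0.660% of counts under vehicle, against 0.171% and 0.215% in oxaliplatin mice 3 and 2 and 0.589 to 0.765% in the others. Kidney markers were near 0 in marrow apart from Slc12a3 (called lower at -2.73), and neutrophil markers near 0 in kidney, as the labels have it.

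Adult globin reads fell 5.19-fold to 6.66-fold in the marrow of oxaliplatin mice. The sum over Hba-a1, Hba-a2, Hbb-bs and Hbb-bt went from 3.17% ± 0.556 (SD, n = 5) of all counts under vehicle to 0.562% ± 0.245 (SD, n = 5) under oxaliplatin. All 6 members with enough reads to be tested were called lower, namely these 4 and both theta genes, and each was lower in 5 of 5 mice without overlap. Among the 22363 genes tested in marrow, 11.8% were called lower and 13.5% were lower without overlap. The median log2 fold change was -2.63 over the 6 members and -0.04 over all genes tested.

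Hba-a1, the alpha gene with more counted reads, was at 13075, 14042, 13116, 17422 and 9666 CPM in vehicle mice 1 to 5. In oxaliplatin mice 1 to 5 it was at 2564, 3547, 1859.6, 1046 and 1779.6 CPM. Every treated mouse lay below the lowest vehicle mouse, and mouse 4 was lowest. The log2 fold change of Hba-a1 was -2.64 ± 0.29 (SE; 6.24-fold, adjusted p = 1.8e-05).

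Hba-a2, its near copy, was at 6545, 6984, 6683, 8816 and 4979 CPM under vehicle and at 1411, 1929, 765, 466 and 959 CPM under oxaliplatin. The mice stood in nearly the same order as for Hba-a1. Its log2 fold change was -2.62 ± 0.33 (SE, adjusted p = 6.1e-05).

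Hbb-bs, the beta gene with more counted reads, was at 9882, 11422, 10519, 14431 and 7541 CPM under vehicle. Under oxaliplatin it was at 2059.5, 2561, 1346, 763 and 1351 CPM. It had the deepest fall of the 4 adult genes by point estimate, with a log2 fold change of -2.74 ± 0.30 (SE, adjusted p = 1.7e-05). Hbb-bt, its near copy, was at 2296, 2752, 2678, 3457 and 1925 CPM under vehicle and at 616, 789, 442, 261 and 418 CPM under oxaliplatin. Its log2 fold change was -2.38 ± 0.27 (SE, 5.19-fold, adjusted p = 2.3e-05).

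The theta genes, alpha-like genes of the adult cluster whose protein has no settled role, moved with the others at far lower levels. Hbq1b was at 32.4, 32.5, 30.5, 32.8 and 22.7 CPM under vehicle and at 4.00, 5.39, 5.08, 3.23 and 4.02 CPM under oxaliplatin. Its log2 fold change of -2.80 ± 0.16 (SE, adjusted p = 1.4e-07) had the smallest error of the 6 members. Hbq1a was at 4.40, 4.45, 3.91, 3.16 and 3.54 CPM under vehicle and at 0.778, 0.784, 0.862, 0.757 and 0.593 CPM under oxaliplatin, with a log2 fold change of -2.36 ± 0.20 (SE, adjusted p = 2.6e-06).

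The 3 embryonic genes had too few reads for the main filter. Hba-x, the embryonic zeta chain, had 8, 14, 16, 12 and 8 counts in vehicle marrow and 6, 0, 6, 0 and 0 in oxaliplatin marrow. The groups of Hba-x did not overlap, and without the filter its log2 fold change was -2.43 with an adjusted p of 0.053, which missed the threshold. Hbb-y, an embryonic beta-like gene, had 3, 10, 9, 10 and 3 counts against 6, 2, 21, 2 and 8, and Hbb-bh1, another, had 2, 5, 3, 0 and 0 against 8, 1, 7, 4 and 2. Both overlapped between groups, and at these counts a change was not detectable.

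**Figure D1:**
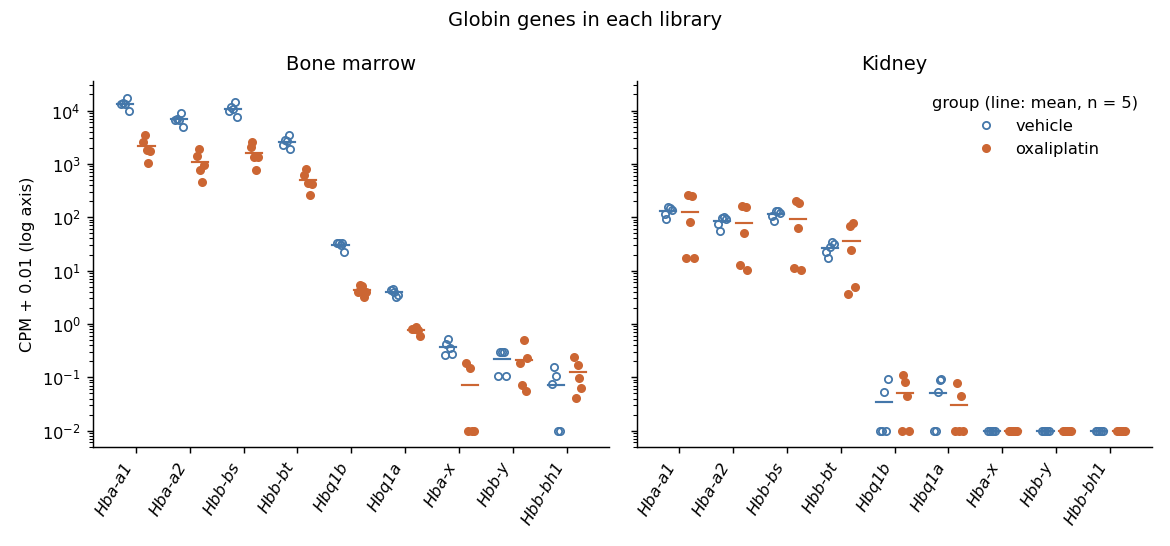
CPM plus 0.01 on a log axis for the 9 globin genes in each marrow library (left) and each kidney library (right). Open points are vehicle, filled points oxaliplatin and lines the means of 5 libraries. In marrow the 6 genes on the left lie lower in all 5 treated mice, whereas in kidney the treated mice spread above and below the vehicle mice.

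Per kilobase of exon, the order in vehicle marrow was Hba-a1 at 16581 CPM, Hbb-bs at 14009, Hba-a2 at 10197 and Hbb-bt at 3729. Each stood above the next in 5 of 5 libraries, although the ranges of the first 3 overlapped across mice. Hbq1b followed at 41.7 CPM per kilobase and Hbq1a at 6.44, both without overlap with their neighbours. Hba-x, Hbb-y and Hbb-bh1 were at 0.377, 0.332 and 0.099 CPM per kilobase, and their ranges overlapped. Under oxaliplatin the first 6 kept this order. The exon length includes stretches shared between copies, whose reads are not counted. Shared 100-base windows made up 56.5% of Hba-a1 and 74.5% of Hba-a2, so the order is not one of transcript abundance.

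Within a library, the balance of 2 genes can be read without any scaling. In all, 11 ratios were formed over both tissues from pairs with at least 10 counts in every library. Each was tested on the log2 scale by a two-sided exact permutation test of 5 mice against 5, for which the smallest possible p is 0.00794. Of these, 3 separated the groups, each with an adjusted p of 0.0291.

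The beta copies shifted against each other. In vehicle marrow Hbb-bt reads were 0.232, 0.241, 0.255, 0.240 and 0.255 of Hbb-bs reads, and in oxaliplatin marrow 0.299, 0.308, 0.328, 0.342 and 0.310. Every treated mouse lay above every vehicle mouse. The ratio rose from 0.245 ± 0.010 to 0.317 ± 0.017 (SD, n = 5 each; 1.30-fold, exact permutation p = 0.00794, adjusted p = 0.0291). In kidney the same ratio was 0.214, 0.197, 0.207, 0.256 and 0.253 under vehicle and 0.333, 0.341, 0.379, 0.424 and 0.480 under oxaliplatin, again without overlap. It rose 1.73-fold there, from 0.225 ± 0.027 to 0.391 ± 0.061 (SD, n = 5 each; exact permutation p = 0.00794, adjusted p = 0.0291). The labels do not say whether marrow and kidney libraries of equal number came from the same mouse, so the tissues may not be independent. With any vehicle mouse or with oxaliplatin mouse 2, 3 or 5 left out, the exact permutation test of either tissue gave an adjusted p of 0.0582, with the ratio 0.36 to 0.39 higher on the log2 scale in marrow and 0.71 to 0.84 higher in kidney.

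The alpha copies overlapped between the groups. Hba-a2 reads were 0.497 to 0.515 of Hba-a1 reads in vehicle marrow and 0.550, 0.544, 0.412, 0.446 and 0.539 in oxaliplatin mice 1 to 5. The treated mice thus lay on both sides of the narrow vehicle range, mice 3 and 4 below and mice 1, 2 and 5 above (difference of -0.03 on the log2 scale, exact permutation p = 0.730, adjusted p = 0.786). In kidney the ratio was 0.644 ± 0.031 against 0.639 ± 0.050 (SD, n = 5 each) with overlapping groups.

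Beta against alpha was measured by Hbb-bs reads over Hba-a1 reads. In marrow this was 0.796 ± 0.029 under vehicle and 0.747 ± 0.035 under oxaliplatin (SD, n = 5 each; exact permutation p = 0.0556, adjusted p = 0.122). In kidney it fell from 0.942, 0.941, 0.848, 0.871 and 0.896 to 0.638, 0.776, 0.775, 0.732 and 0.595, without overlap (0.778-fold, exact permutation p = 0.00794, adjusted p = 0.0291). The lowest values belonged to kidneys 1 and 5. Leaving out a vehicle mouse, or oxaliplatin mouse 2, 3 or 5, gave differences of -0.40 to -0.30 on the log2 scale at an adjusted p of 0.0582 in the same exact permutation test. Summed over copies, alpha reads were 1.52 ± 0.058 times beta reads in vehicle marrow and 1.52 ± 0.070 times in oxaliplatin marrow (SD, n = 5 each). In kidney they were 1.49 ± 0.061 and 1.70 ± 0.218 times (SD, n = 5 each), and the groups overlapped. The kidney range was 1.43 to 1.58 under vehicle and 1.52 to 2.02 under oxaliplatin, with kidneys 1 and 5 highest. The summed ratio was not tested. Hbb-bs is also the divisor of the beta copy ratio, so these kidney results share its reads.

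**Figure D2:**
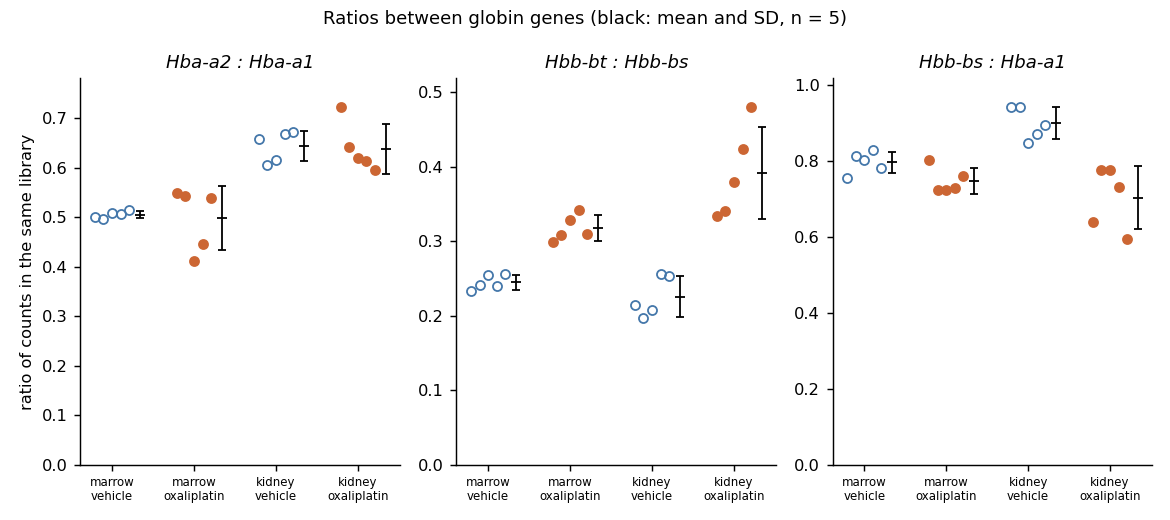
Ratios of counts within each library for the alpha copies, the beta copies and beta against alpha, in marrow and kidney. Open points are vehicle and filled points oxaliplatin, with the mean and SD of 5 libraries in black. The Hbb-bt to Hbb-bs ratio is higher in all treated libraries of both tissues, and the Hba-a2 to Hba-a1 ratio overlaps in both.

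The genes that supply heme fell beside the globins in marrow. All 8 heme synthesis enzymes were called lower, with a median log2 fold change of -1.78. Alas2, the red cell form of the first enzyme, had the deepest fall at -2.84 ± 0.25 (SE, adjusted p = 3.7e-06), close to that of Hba-a1, and Cpox the shallowest at -0.96 ± 0.26 (SE, adjusted p = 0.012). Of 5 mitochondrial carriers 4 were called lower, led by Slc25a37 (mitoferrin, which imports iron) at -2.26. The Alas2 to Hba-a1 ratio was 9.40% ± 0.301 under vehicle and 8.45% ± 0.750 under oxaliplatin (SD, n = 5 each; exact permutation p = 0.0317, adjusted p = 0.0873), and without oxaliplatin mouse 4 its difference of -0.20 on the log2 scale had an adjusted p of 0.0437 in that permutation test.

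Red cell membrane genes fell too. All 10 listed were called lower, with a median of -2.73, among them Epb42 (protein 4.2) at -3.08 and Slc4a1 (band 3, the anion exchanger) at -2.86. Of 7 red cell enzymes 6 were called lower, and Bpgm, which makes the effector that lowers the oxygen affinity of hemoglobin, had a log2 fold change of -3.29 ± 0.35 (SE). Cyb5r3, which reduces methemoglobin in red cells and is used in many other cells, was at -0.05.

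Regulators of the globin clusters varied widely. Of 11 listed factors 7 were called lower, with a median of -0.71. Sox6, a silencer of embryonic globin genes, was at -2.81, and Klf1, an activator of adult globin genes, at -1.65 ± 0.36 (SE, adjusted p = 0.0044). Gata1, the main erythroid factor, was at -0.22 ± 0.19 (SE, adjusted p = 0.43) and was not called, and Nfe2, Zbtb7a and Ldb1 at -0.49, -0.45 and -0.32 stayed under the fold threshold.

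Genes next to the alpha cluster and globins outside the clusters did not all go the way of the members. Nprl3, whose introns hold the alpha control region, was called lower at -1.02 and Mpg at -0.76, Rhbdf1 was called higher at 1.18, and Snrnp25 at -0.26 was not called. Cygb (cytoglobin, made in connective tissue cells) was called higher at 2.01, Mb (myoglobin) at 2.37 with an SE of 1.06 and Adgb at 0.61 were not called, and Ngb was not tested. Among the other rows with globin symbols, Hba-ps4 was at -0.43 and not called, Hbb-bh0 had no reads, and Hba-ps3, Hbb-bh2 and Hbb-bh3 had at most 4 counts in any library.

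**Figure D3:**
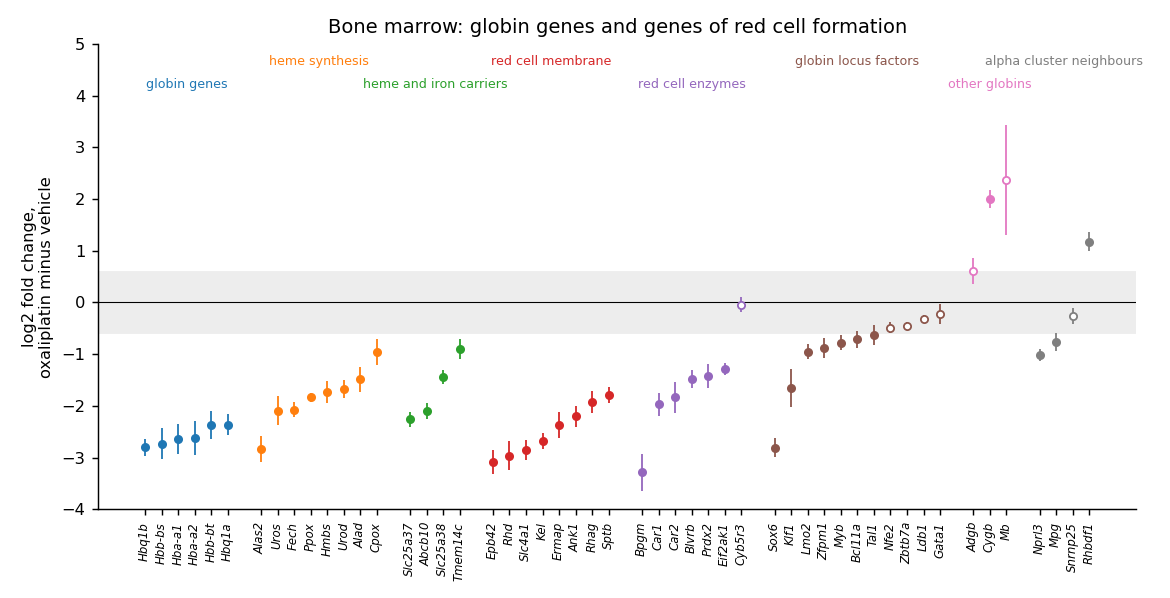
Log2 fold change in marrow, oxaliplatin minus vehicle, with its SE, for the tested globin genes and genes of red cell formation grouped by role. Filled points were called, open points were not, and the grey band marks changes under 1.5-fold. Globins, Alas2, Bpgm and membrane genes lie between -3.29 and -1.79, and most locus factors between -0.95 and -0.22.

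The 5 treated marrows did not share the same balance between globins and other red cell genes. As a percentage of the vehicle mean, Hba-a1 was at 19.0, 26.3, 13.8, 7.77 and 13.2 in mice 1 to 5. Klf1 was at 12.0, 32.2, 62.5, 34.8 and 17.6. Mouse 3 was thus highest for Klf1 but in the middle for Hba-a1, and mouse 1 was lowest for Klf1 but next to highest for Hba-a1. Bpgm went the way of the globins, at 14.4, 15.8, 5.70, 4.41 and 11.04. Hbq1b was more even, at 13.3, 17.9, 16.8, 10.7 and 13.3.

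Set against Hba-a1 reads, Klf1 reads were 1.81 to 2.54% in vehicle marrow and 1.34, 2.59, 9.59, 9.49 and 2.82% in oxaliplatin mice 1 to 5. Mice 3 and 4 stood well above the vehicle range and mouse 1 below it. The groups overlapped (exact permutation p = 0.230, adjusted p = 0.362), and without mouse 1 the difference was 1.24 on the log2 scale with an adjusted p of 0.0437 in the same permutation test. Mice 3 and 4 also had the lowest Hba-a2 to Hba-a1 ratios, and mice 2 and 3 the low mitochondrial share.

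**Figure D4:**
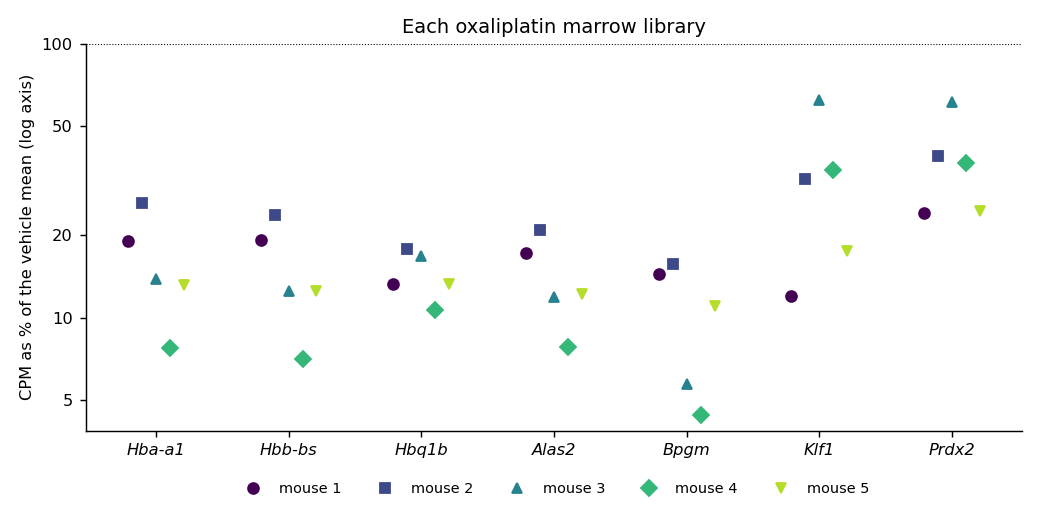
CPM of 7 genes in each oxaliplatin marrow library as a percentage of the vehicle mean, on a log axis, with a marker for each mouse and a dotted line at 100%. Mouse 4 is lowest for Hba-a1, Hbb-bs, Alas2 and Bpgm, while mouse 1 is lowest for Klf1 and Prdx2.

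Markers of other cells also moved in these marrows, and their part in the globin result was not tested. None of 8 neutrophil markers was called by edgeR, 0 by DESeq2 and 0 at an unadjusted p under 0.05 (median log2 fold change -0.20), with a summed level of 19084 to 23371 CPM under vehicle and 9556 to 26822 under oxaliplatin. Of the B cell markers 5 of 6 were called lower, at 236 to 425 CPM summed against 55.6 to 75.8, and of the platelet markers 4 of 5 higher, at 925 to 1435 against 1731 to 2674. All 5 adipocyte markers were called higher (72.5 to 131 CPM summed against 368 to 1469), as were 4 of 5 skeletal muscle markers (9.51 to 93.0 CPM against 39.5 to 701). Of the 22363 genes tested in marrow, 5221 were called either way, 2632 of them lower. No listed marker was at 0 in every marrow library.

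The genes whose level followed Hba-a1 most closely from mouse to mouse were taken after subtracting group means, over 10 marrow libraries and 14649 genes. Hbb-bs, Hbb-bt and Hba-a2 had Pearson r of 0.994, 0.991 and 0.981 with it, and Hbq1b 0.786. Outside the members Alas2 came first at 0.989 (Spearman rho 0.988), then Haus1 at 0.943, Rmnd5a at 0.942, Atp6v1e1 at 0.941 and Gabarap at 0.934. These values describe 10 libraries that share scaling and depth, the median r over all genes was 0.076, and without the 2 libraries farthest from the median of Hba-a1 the r of Alas2 was 0.984.

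In kidney no globin gene was called. Of the members 4 were tested, against 11.5% of 19293 genes called either way. By edgeR none of the 4 had an unadjusted p under 0.05, and DESeq2 called 0. Hba-a1 was at 113, 91.7, 156, 151 and 137 CPM in vehicle kidneys 1 to 5 and at 17.4, 257, 81.3, 253 and 17.6 CPM in oxaliplatin kidneys 1 to 5. Kidneys 2 and 4 lay above every vehicle kidney, kidneys 1, 3 and 5 below. The group means were 129.6 ± 27.1 and 125 ± 121 CPM (SD, n = 5 each), with a log2 fold change of -0.05 ± 0.78 (SE, edgeR adjusted p = 0.97).

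Hba-a2 and Hbb-bs split in the same way, while for Hbb-bt kidney 3 lay within the vehicle range. Hba-a2 was at 74.2, 55.5, 96.2, 100.8 and 92.1 CPM against 12.6, 165, 50.4, 155 and 10.4, with a log2 fold change of -0.09 ± 0.77 (SE). Hbb-bs was at 106, 86.3, 132, 131 and 123 CPM against 11.1, 199, 63.0, 185 and 10.4, with -0.30 ± 0.81 (SE). Hbb-bt was at 22.7, 17.0, 27.3, 33.6 and 31.1 CPM against 3.70, 67.9, 23.9, 78.4 and 5.01, with 0.44 ± 0.81 (SE). With errors this wide a change of the group mean was not detectable in 5 against 5, and the signs of Hba-a1, Hba-a2 and Hbb-bt turned under other settings.

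Hba-x, Hbb-y and Hbb-bh1 had 0 counts in all 10 kidney libraries, which allows up to 0.0900 to 0.130 CPM in a library. Hbq1a and Hbq1b had at most 2 and 3 counts in a kidney library. The adult genes together made up 0.0338% ± 0.0065 of counts in vehicle kidneys and 0.0348% ± 0.0340 in oxaliplatin kidneys (SD, n = 5 each).

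Some red cell genes were highest in the same treated kidneys as the globins and others were not. Kidneys 2 and 4 were the highest of the treated kidneys by CPM for 9 of 10 membrane markers, Sptb being the exception. The share was 8.91% of 19408 genes with a mean of at least 10 counts, a floor the list did not have. For Rhag, Kel and Ermap the order turned on a few reads. Rhag was at 0.202 CPM in kidney 2 and 0.180 in kidney 5. In kidneys 4 and 5 Kel was at 0.456 and 0.420 CPM and Ermap at 0.386 and 0.360. Kidneys 2 and 4 were also highest for 2 of 8 heme synthesis enzymes, 3 of 5 carriers, 1 of 7 red cell enzymes and 3 of 11 locus factors. Alas2 had 77, 473, 178, 545 and 188 counts in oxaliplatin kidneys 1 to 5 and 177 to 232 in vehicle kidneys, with kidneys 2 and 4 highest again. Ank1 (ankyrin, which anchors the red cell skeleton) had 17, 92, 39, 119 and 31 counts against 12 to 30. Klf1 did not follow, at 7.54, 6.23, 6.26, 5.09 and 5.94 CPM against 5.62 to 7.16. Of the membrane list 4 genes were tested, with log2 fold changes from 0.23 to 1.23. Only Slc4a1, also made by acid-secreting kidney cells, was called higher by edgeR, at 0.69 (adjusted p = 0.017). DESeq2 called 2 of the 4, and 3 had an unadjusted p under 0.05 by edgeR. The summed level of the 10 membrane markers was 58.4 to 72.6 CPM under vehicle and 77.1 to 136 CPM under oxaliplatin, mostly from Slc4a1. How much of the globin signal in kidney came with red cells was not tested.

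The Alas2 to Hba-a1 ratio was highest in kidneys 1 and 5, which were lowest for its divisor Hba-a1. Alas2 itself was at 33.4% and 68.1% of the vehicle mean there, against 13.4% and 13.5% for Hba-a1. Alas2 reads were 5.24 to 7.69% of Hba-a1 reads under vehicle and 15.9, 6.20, 7.87, 7.57 and 32.1% in oxaliplatin kidneys 1 to 5. The groups overlapped at kidneys 2 and 4 (exact permutation p = 0.0873, adjusted p = 0.160). Klf1 was 3.60 to 7.81% of Hba-a1 reads under vehicle and 43.4, 2.42, 7.70, 2.01 and 33.8% under oxaliplatin (exact permutation p = 0.397, adjusted p = 0.546). Of the other lists, 1 of 8 heme synthesis enzymes was called lower in kidney (Cpox, -0.76). By edgeR 6 of the 8 had an unadjusted p under 0.05, and the median log2 fold change was -0.32. Their summed level was 609 to 689 CPM under vehicle and 450 to 545 CPM under oxaliplatin. None of the 5 carriers, 6 red cell enzymes, 8 locus factors, 4 cluster neighbours or 2 other globins tested was called by edgeR or DESeq2. Of these lists, 2, 6, 4, 0 and 1 genes had an unadjusted p under 0.05 by edgeR. Among markers of other cells in kidney, 3 of 4 adipocyte markers, 1 of 2 platelet markers (Pf4) and 1 of 7 kidney markers (Nphs1) were called higher, and the 2 B cell markers and the muscle marker tested were not called.

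Epo, the kidney hormone that drives red cell formation, was looked at after its values were seen. It had 5738, 838, 2886, 1882 and 7309 counts in oxaliplatin kidneys 1 to 5 and 0 to 6 in vehicle kidneys. Kidneys 1 and 5, lowest for Hba-a1, were highest for Epo, and kidneys 2 and 4, highest for Hba-a1, were lowest for Epo among the treated. With 5 treated mice no correlation is given.

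**Figure D5:**
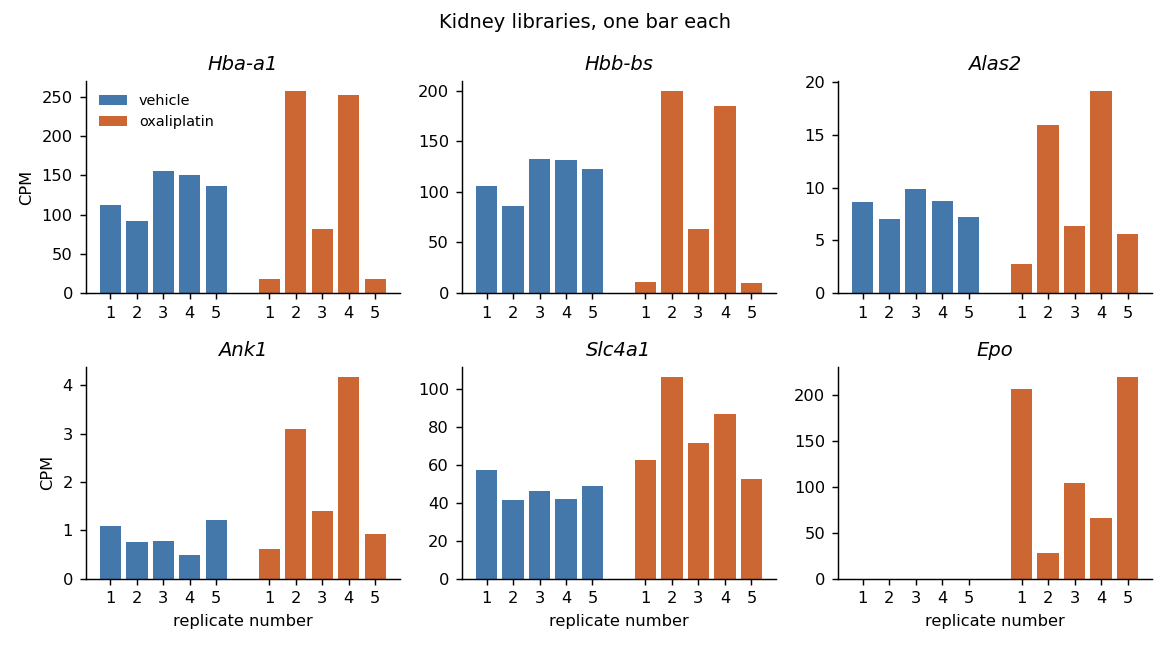
CPM in each kidney library, numbered by replicate, for Hba-a1, Hbb-bs, Alas2, Ank1, Slc4a1 and Epo, with vehicle in blue and oxaliplatin in orange. Treated kidneys 2 and 4 have the tallest bars for both globins, Alas2 and Ank1 and the shortest of the treated bars for Epo.

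Across kidney libraries the genes closest to Hba-a1 after subtracting group means, among 13635, were the members Hbb-bs, Hba-a2 and Hbb-bt (r of 0.998, 0.998 and 0.993) and then Tent5c at 0.967, Zdhhc6 at 0.960, Tmem64 at 0.959, Gm15348 at 0.949 and Ptgr1 at 0.948. This describes 10 libraries in which the 5 treated kidneys carry most of the spread, and the median r over all genes was 0.015.

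The difference between tissues was tested in a single fit over all 20 libraries. The kidney effect minus the marrow effect was 2.54 ± 0.81 for Hba-a1, 2.48 ± 0.82 for Hba-a2, 2.38 ± 0.84 for Hbb-bs and 2.77 ± 0.84 for Hbb-bt on the log2 scale (SE), with edgeR adjusted p of 0.023, 0.028, 0.040 and 0.018. Hbq1b was called too, at 3.43 ± 1.01 (SE, adjusted p = 0.013), but on at most 3 counts in a kidney library, and Hbq1a at 1.44 was not. All 4 adult genes were thus called, against 23.7% of 24321 genes. The theta genes passed the filter through their marrow reads and could not show a fall from so few kidney counts. Counting Hbq1b, 5 of the 6 tested members were called, but its call is not a result about kidney. Calls other than that of Hbb-bt depended on which libraries were included. With 1 library left out, Hbb-bs lost its call in 15 of 20 fits, Hba-a2 in 5, Hba-a1 in 2, Hbq1b in 1 and Hbb-bt in 0. Counting Hbq1b, 3 members stayed called without marrow oxaliplatin mouse 3, 4 or 5. This fell to 2 without kidney oxaliplatin mouse 4 and to 1 without kidney oxaliplatin mouse 2. With same-numbered libraries of both tissues taken as 1 animal, which the labels do not state, only Hbq1b stayed called.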

How the data were processed

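Bone marrow and kidney were sequenced from 5 oxaliplatin and 5 vehicle mice each. Per the labels and the study's methods, reads were aligned with STAR and the deposited tables hold raw counts of uniquely placed reads per Ensembl gene. The submitters' processing notes also list featureCounts and Salmon, the labels describe ribosomal RNA removal with random priming, and the methods name another library kit. Counts depend on near-identical copies, since reads shared between them were left out.

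Of 55774 lines per table, 1 without a value and 287 repeats of an identifier were dropped. Genes passing filterByExpr (minimum count 10) were fitted with edgeR 4.0.16 (R 4.3.3; TMM, robust glmQLFit, glmQLFTest, treatment as the only term, Benjamini-Hochberg adjustment over all genes tested); SE is the log2 fold change over the square root of F. DESeq2 1.42.0 was an alternative. CPM used the TMM-scaled library, and log2 CPM a prior count of 2. Ratios used raw counts with exact permutation tests (scipy) adjusted over 11 ratios; 1 of these and 3 listed genes, which stay in the counts, are not reported here singly. Depth intervals cover counting error only. Positions came from GENCODE M21, which gave 55141 of 55486 identifiers a place, and promoters from RefSeq. The fits were tested on simulated data.

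Named genes were the globin genes, fixed lists of heme, membrane, enzyme, factor and marker genes, other rows with globin symbols and the 5 genes most like Hba-a1. The members and lists were chosen with earlier results of these data known. Same-numbered samples did not deviate together (correlations -0.154 to 0.228), so numbers were not taken as pairs. Alternatives covered the test, scaling, filters, a block, a covariate of Y-linked genes and leaving out each library.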

Additional observations from a re-analysis of the deposited data

Results flagged for a closer look

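Among 48 groups of 5 libraries examined for a value far from the others, 1 stood out. The groups share libraries and reads, so this count was not set against chance. Hbq1b in vehicle marrow was at 22.7 CPM (700 counts) in mouse 5 and at 30.5 to 32.8 CPM in the other vehicle mice, and the gap made up 0.769 of the group's range. Mouse 5 was also the lowest vehicle mouse for Hba-a1, Hba-a2, Hbb-bs and Hbb-bt.

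The test of a difference between the tissues in the response to oxaliplatin called 5 globin genes, against 23.7% of all 24321 genes tested. The kidney effect minus the marrow effect was 2.54 for Hba-a1, 2.48 for Hba-a2, 2.38 for Hbb-bs, 2.77 for Hbb-bt and 3.43 for Hbq1b on the log2 scale, by edgeR's test of the interaction. Hbq1b rests on at most 3 counts in a kidney library, so it could not show a fall there and its call is not a result about kidney. With 1 library left out, Hbb-bs lost its call in 15 of 20 fits. The count of 5 fell to 3 without marrow oxaliplatin mouse 3, 4 or 5. It fell to 2 without kidney oxaliplatin mouse 4 and to 1 without kidney oxaliplatin mouse 2. The cause was not tested.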

How the results depend on the processing

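The count of 6 members called lower in marrow was the same with DESeq2, other scalings, either filter, the replicate block, the Y-linked covariate and with each mouse left out, and the count of 0 in kidney likewise. The kidney log2 fold changes moved and 3 changed sign: with library size alone Hba-a1 was at 0.083 and Hba-a2 at 0.043, with the replicate block Hbb-bt was at -0.30, Hba-a1 moved to -0.85 ± 0.97, Hba-a2 to -0.85 ± 0.97 and Hbb-bs to -1.16 ± 1.05 (SE), and with a mouse left out Hba-a1 ranged from -0.49 to 0.24, Hba-a2 from -0.56 to 0.20 and Hbb-bt from -0.057 to 0.74. No kidney member was called under any of these.

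The tissue by treatment interaction called 5 members, against 23.7% of 24321 genes. This count includes Hbq1b, whose call is not a result about kidney. The count was 1 to 5 with a library left out. It was 1 with the replicate block, where same-numbered libraries of both tissues were taken as 1 animal. The cause was not tested. The numbers share no stated animal. For the ratios, the 5 pairs of the replicate block cannot reach the threshold. The block changes only the p of a ratio, so the differences were those of the main test (-0.36 for Hbb-bs to Hba-a1 and 0.79 for Hbb-bt to Hbb-bs in kidney, 0.38 for Hbb-bt to Hbb-bs in marrow). With a mouse left out they ranged from -0.40 to -0.30, from 0.71 to 0.85 and from 0.35 to 0.40, and fewer divisions of 9 mice raise the smallest p. Of the ratios that did not separate, leaving out a mouse gave -0.061 to 0.0098 and -0.071 to 0.034 for Hba-a2 to Hba-a1 in kidney and marrow, -0.20 to -0.11 for Alas2 to Hba-a1 and 0.53 to 1.24 for Klf1 to Hba-a1 in marrow. Depth limits the embryonic genes in both tissues and the theta genes in kidney.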
